A study of Eucalyptus globulus and Eucalyptus grandis with 36 samples.

Results

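Of the 11827 gene identifiers in the authors' tables, 21 carry the description of an enzyme of flavonoid or anthocyanin synthesis. They were chosen by the words chalcone, flavanone, flavonol, anthocyanidin and leucoanthocyanidin in their descriptions, leaving out glycosyltransferases and cytochrome P450 genes. The rule itself used no measured value, but it was set with earlier results of these data known. A gene could appear only if the authors had selected it as changed in at least 1 table. The 21 are 9 chalcone and stilbene synthase family genes, 4 chalcone-flavanone isomerase family genes, 1 flavanone 3-hydroxylase, 4 genes described as flavonol synthase 1, 2 dihydroflavonol 4-reductases and 1 leucoanthocyanidin dioxygenase. Of these, 20 were listed in at least 1 table with E. globulus groups, 2 in a table of E. grandis temperatures or treatments, and 1 in both kinds.

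Flavonoids are made from a phenylpropanoid acid that is first activated with coenzyme A. Chalcone synthase joins it with malonyl units into a chalcone, chalcone isomerase closes the central ring to a flavanone, and flavanone 3-hydroxylase turns that into a dihydroflavonol. There the route divides: flavonol synthase makes flavonols, while dihydroflavonol 4-reductase and leucoanthocyanidin dioxygenase lead to the coloured anthocyanidins, which also feed condensed tannins. In woody stems these compounds are known as light screens, antioxidants and defence compounds, mostly in the outer tissues. The chalcone and stilbene synthase family also holds related enzymes that make other products, and which product each eucalypt member makes was not tested.

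Stem RNA was sequenced from seedlings of Eucalyptus globulus and Eucalyptus grandis, eucalypts grown for pulpwood and raised here from clonal seed. In each species, stems came from chambers titled 10, 20 and 30 °C (10 to 12, 22 to 24 and 33 to 35 °C in the protocols), each at ambient CO2 (390 ppm in the protocols, 400 ppm in the design text) and at elevated CO2 (700 ppm). Per the protocols plants spent 35 days there under 10 h of light a day, while the design text gives 35 days as their age, and 20 °C with ambient CO2 was each species' control. The 36 samples form 12 groups of 3; values came for 11 groups, and E. grandis at 20 °C with elevated CO2 was not analysed here. The labels name no genotype or transgene within a species, and treatment and growth chamber cannot be told apart.

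Each value is the authors' normalised log2 value of a gene for a whole group, so no SD, n or test can be set beside it, and depth per sample is unknown. The only test behind a call is the authors' selection, which measured spread between 3 samples whose origin from separate plants the labels do not state. Changed, higher or lower here means that the authors listed the gene and that its group values lay at least 1 apart on the log2 scale, that is 2-fold. In the tables of 3 temperatures the authors tested all 3 together, so a call for 1 pair rests on that test and on the size of the pair's difference. Genes with the same description may share reads, so the value of a single member is uncertain. Levels were not given per length and are not compared between genes.

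In E. globulus at ambient CO2, enzymes of nearly the whole route were higher in stems at 10 °C and lower at 30 °C than at 20 °C. Of the 21 genes, 19 were listed in the table of 3 temperatures. At 10 °C, 13 of the 21 were higher than at 20 °C and 0 were lower, where 16.9% of the 9802 described genes were higher and 14.9% lower. The 9802 are the genes with a description in any of the authors' tables, so these are not shares of the genome. Of the 6180 described genes listed in the table of 3 temperatures itself, 1652 were higher and 1462 lower at 10 °C. The 13 came from each of the 6 steps. At 30 °C, 15 were lower and 2 higher than at 20 °C, against 15.2% of described genes lower and 22.1% higher. Set directly against 10 °C, 17 were lower at 30 °C and 2 higher, where the background was 18.4% lower and 23.9% higher. The median difference of the changed members was 1.50 at 10 °C and -1.94 at 30 °C on the log2 scale. The signed median of all changed described genes was 1.03 and 1.15. It pools higher and lower genes, each at least 1 apart, so it lies near that minimum and is no measure of usual size. Both comparisons use the same control samples.

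**Figure D1:**
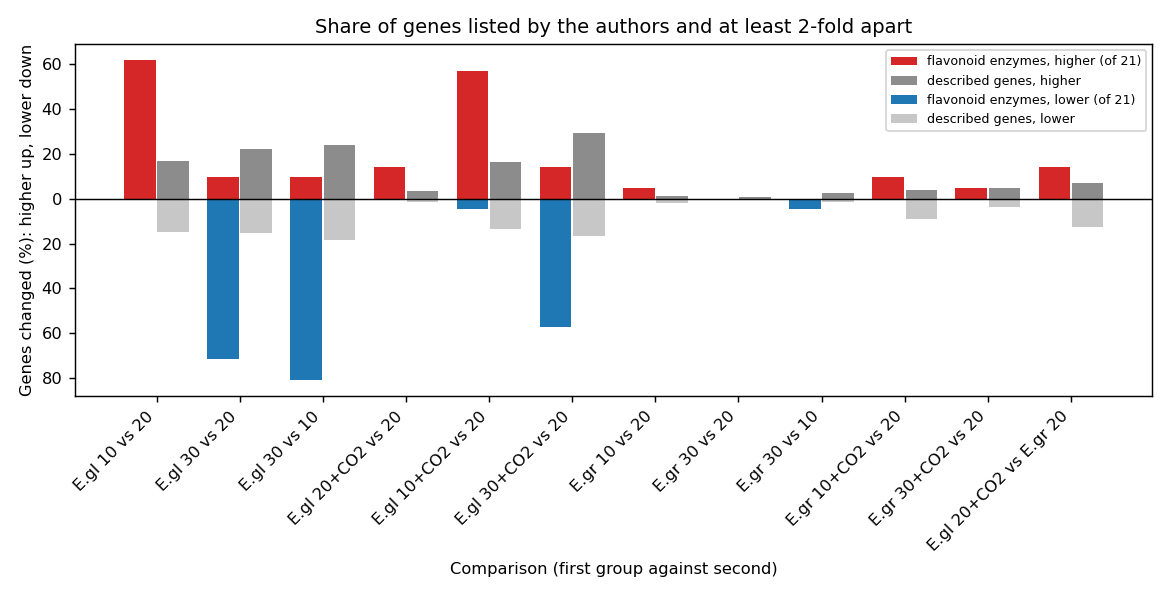
Share of genes (%, vertical axis) listed by the authors and at least 2-fold apart, for each comparison of group values (horizontal axis), with higher genes drawn upward and lower genes downward. Coloured bars are shares of the 21 flavonoid enzymes and grey bars shares of the 9802 described genes; the 13 enzymes higher at 10 °C and the 15 lower at 30 °C in E. globulus extend past the grey bars.

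Markers of other cell types moved in the same comparisons. Of 10 markers of photosynthetic cells, 6 were lower at 10 °C and 6 higher at 30 °C than at 20 °C; 10 of the 10 were higher at 30 °C than at 10 °C. Their summed level was 13.36 at 10 °C, 14.46 at 20 °C and 15.39 at 30 °C on the log2 scale. Both listed xylem markers, fasciclin-like arabinogalactan proteins of wood cells, were lower at 10 °C and none at 30 °C; their summed level was 12.30, 13.62 and 12.93. Of 6 phloem markers 0 changed at 10 °C, and 3 were lower and 1 higher at 30 °C, with sums of 8.64, 8.40 and 7.56. The 2 epidermal markers, both described as protodermal factor 1, were 2 of 2 higher at 30 °C, with sums of 2.85, 2.62 and 4.77. No marker value was at 0 in these 3 groups, but both epidermal markers were near it in the control, at 1.17 and 1.97. The part of the cell types in the enzyme results was not tested, and in whole stems fewer cells of a type and less RNA per cell cannot be told apart.

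Chalcone synthase makes the first committed step, and 2 of its family, Eucgr.H02828 and Eucgr.I01579, had the same order of all 6 E. globulus groups. Eucgr.H02828 had a group value of 16.17 at 10 °C, 14.48 at 20 °C and 10.66 at 30 °C in ambient CO2, and of 16.96, 15.54 and 13.25 in elevated CO2. It was 3.22-fold higher at 10 °C than at 20 °C, 14.2-fold lower at 30 °C than at 20 °C and 45.6-fold lower at 30 °C than at 10 °C. Thus every step up in temperature went with a lower value at both CO2 levels. Eucgr.I01579 had values of 15.15, 13.65 and 10.39 in ambient CO2 and of 15.84, 14.67 and 12.59 in elevated CO2. Its difference between 30 and 20 °C was -3.26 on the log2 scale. For both genes the order from the highest group was 10 °C with elevated CO2, 10 °C, 20 °C with elevated CO2, 20 °C, 30 °C with elevated CO2 and 30 °C. Only 3 of the 21 enzymes had values in all 6 groups, and the third, the flavonol synthase Eucgr.L00738, had another order, with its lowest value in the control. Among described genes, 258 had all 6 values and 22 of them (8.53%) had the order of the 2 synthase genes.

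The other chalcone and stilbene synthase family genes divided in their response to 30 °C. Lower values at 30 °C were found in 5 of the 7, each with its highest ambient value at 10 °C. Eucgr.D01632 had values of 9.98, 9.47 and 7.71 at 10, 20 and 30 °C, Eucgr.D01635 of 8.62, 7.70 and 6.24, and Eucgr.L02670 of 7.63, 7.11 and 5.31. None of these 3 was 2-fold higher at 10 °C than at 20 °C, whereas all were at least 2-fold lower at 30 °C. Eucgr.D01637 had values of 3.38, 2.16 and 0.21, and Eucgr.K01978 of 4.84, 4.48 and 2.92. Eucgr.D01637 was near the floor of the scale, 0, at 30 °C. The annotated ends of Eucgr.D01632, Eucgr.D01635 and Eucgr.D01637 lie within 54.6 kb of each other on the authors' map, so these neighbours with 1 description are candidates for shared reads.

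The remaining 2 family members went the other way at 30 °C. Eucgr.H00087 had values of 5.96 at 10 °C, 4.56 at 20 °C and 8.24 at 30 °C, and of 6.69 and 8.30 at 10 and 30 °C with elevated CO2. It was higher than the control at both 10 °C, by 1.40 on the log2 scale, and 30 °C, by 3.68 or 12.9-fold. Eucgr.H03914 had values of 4.19, 3.56 and 5.35, which is 1.79 higher at 30 °C and 0.63 higher at 10 °C than at 20 °C, the latter under 2-fold. These were the only members of the 19 listed that were higher at 30 °C by 2-fold or more.

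**Figure D2:**
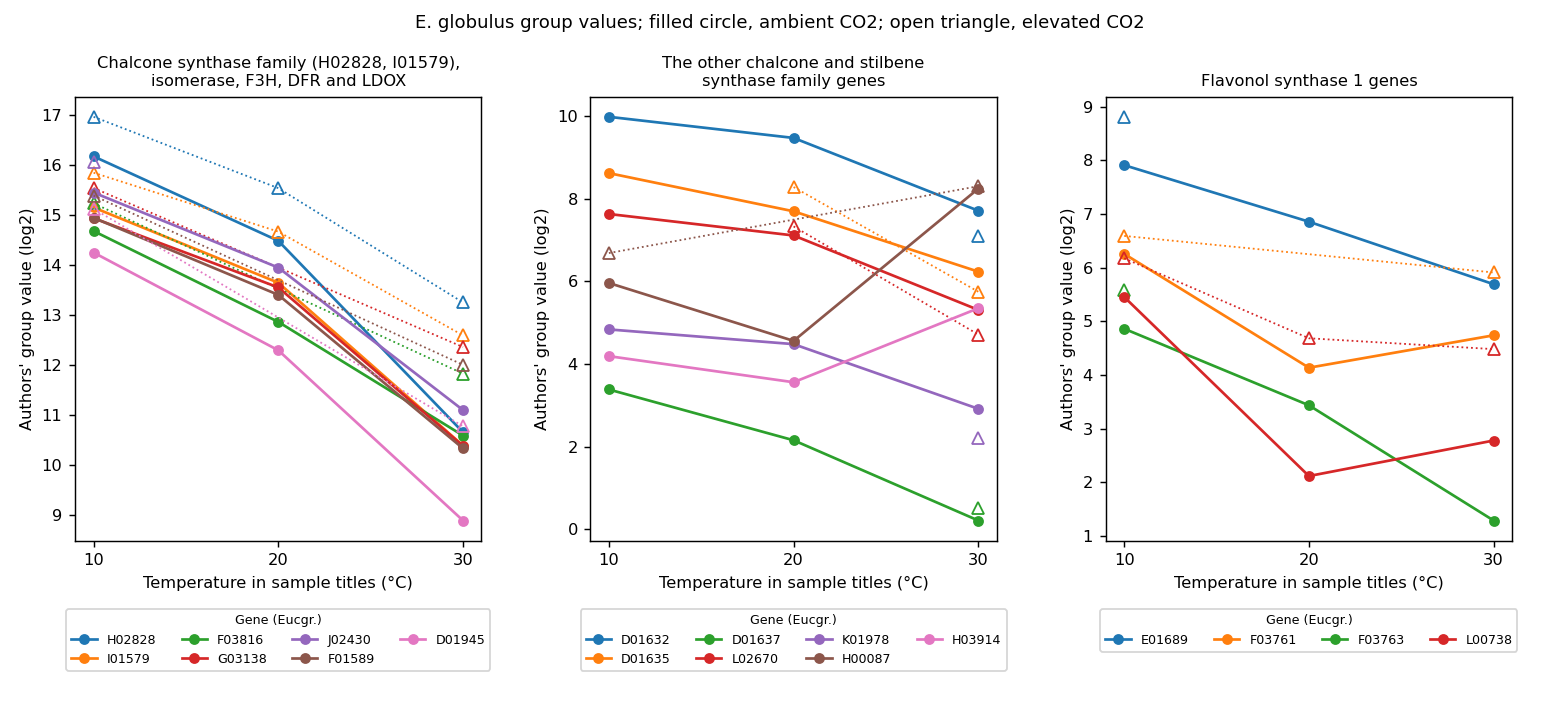
The authors' log2 group values (vertical axis) of 18 flavonoid enzymes in E. globulus stems against the temperature in the sample titles (°C, horizontal axis), with filled circles and solid lines for ambient CO2 and open triangles and dotted lines for elevated CO2. In the left panel every gene has a lower value at each higher temperature, while Eucgr.H00087 and Eucgr.H03914 in the middle panel are highest at 30 °C.

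Chalcone isomerase family genes were listed in E. globulus in 4 of 4 cases, and 2 of them followed the chalcone synthase genes above. Eucgr.G03138 had values of 14.94, 13.55 and 10.39 at 10, 20 and 30 °C in ambient CO2, and of 15.54 and 12.36 at 10 and 30 °C in elevated CO2. Eucgr.F03816 had ambient values of 14.68, 12.86 and 10.59, and elevated CO2 values of 15.23 and 11.83. Both were thus higher in the cold and lower in the heat, by 1.38 and 1.82 at 10 °C and by -3.17 and -2.27 at 30 °C on the log2 scale. Eucgr.I02350 had the same value, 8.48, at 10 and 20 °C and was lower at 30 °C with 7.17. Eucgr.J01153 was not listed among the 3 ambient temperatures. Its control value of 4.89 stood above 1.44 at 10 °C with elevated CO2 and above 2.66 at 30 °C with elevated CO2, so it was lower in both and was the one member lower than the control at 10 °C with elevated CO2.

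Flavanone 3-hydroxylase was a single gene, Eucgr.J02430. Its group values were 15.45 at 10 °C, 13.95 at 20 °C and 11.10 at 30 °C in ambient CO2, and 16.05 at 10 °C with elevated CO2. It was 2.83-fold higher at 10 °C and 7.20-fold lower at 30 °C than at 20 °C. With elevated CO2 at 30 °C it was not listed, so no value is at hand for that group.

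Flavonol synthase genes were alike in direction at 10 °C and differed at 30 °C. All 4 genes were higher at 10 °C than at 20 °C, by 1.05 to 3.34 on the log2 scale, and lower at 30 °C than at 10 °C. Against 20 °C, only 2 of them were 2-fold lower at 30 °C. Eucgr.E01689 had values of 7.91, 6.86 and 5.69 and Eucgr.F03763 of 4.86, 3.43 and 1.28, falling with each temperature. Eucgr.F03761 had values of 6.26, 4.13 and 4.74, and Eucgr.L00738 of 5.45, 2.11 and 2.78, with the lowest value of each at 20 °C. At 30 °C both were under 2-fold above the control, by 0.60 and 0.66. Eucgr.F03761 and Eucgr.F03763 have annotated ends 43.7 kb apart and may share reads, yet Eucgr.F03761 was under 2-fold above and Eucgr.F03763 4.43-fold below its control value at 30 °C.

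The reductase and dioxygenase of the anthocyanidin branch followed the early steps. The dihydroflavonol 4-reductase Eucgr.F01589 had values of 14.94, 13.40 and 10.33 at 10, 20 and 30 °C, which is 2.91-fold higher at 10 °C and 8.39-fold lower at 30 °C than the control. The leucoanthocyanidin dioxygenase Eucgr.D01945 had values of 14.25, 12.29 and 8.89. It was 3.87-fold higher at 10 °C, 10.6-fold lower at 30 °C and 40.9-fold lower at 30 °C than at 10 °C. No gene described as leucoanthocyanidin reductase or anthocyanidin reductase, the enzymes of the tannin branch, was in the tables. Genes were sought by description among those the authors had selected. Genes of this branch may therefore be described otherwise or not selected, and no change in the branch can be read from this.

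**Figure D3:**
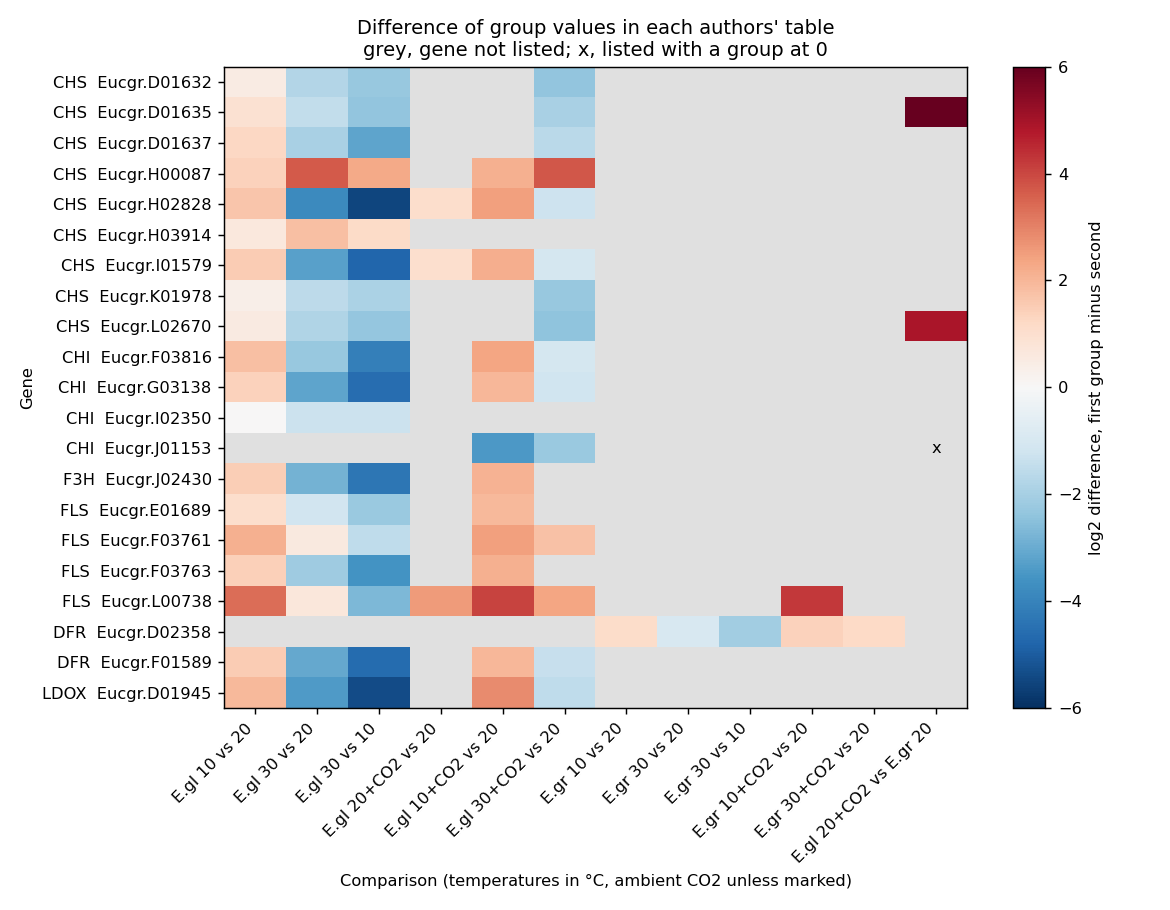
Difference of the authors' group values (log2, colour scale, first group minus second) for the 21 flavonoid enzymes (rows) in the 12 comparisons of the authors' tables (columns), with grey where the gene was not listed. The E. globulus columns at 10 °C hold higher values in most rows, those for 30 °C in ambient CO2 hold mostly lower ones, with Eucgr.H00087 and Eucgr.H03914 higher, and the columns within E. grandis hold 2 genes.

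The protein function terms in the files split the enzymes by chemistry. The flavanone 3-hydroxylase, the 4 flavonol synthases and the leucoanthocyanidin dioxygenase, 6 genes, share the term for dioxygenases that use 2-oxoglutarate. A further 110 genes in the tables carry it. Of those 110, 37 were higher and 25 lower at 10 °C than at 20 °C in E. globulus at ambient CO2 (16.9% and 14.9% of described genes). At 30 °C, 35 were higher and 8 lower (22.1% and 15.2%), where 4 of the 6 flavonoid dioxygenases were lower. The intramolecular lyase term was on 3 isomerase family genes and on no other gene.

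Elevated CO2 at 20 °C, set against the control in 1 authors' table, asked what CO2 did on its own. In it 3 enzymes were higher and 0 lower, where 3.39% of described genes were higher and 1.62% lower. These were the synthase family genes Eucgr.H02828 and Eucgr.I01579, by 1.05 and 1.02, and the flavonol synthase Eucgr.L00738, from 2.11 to 4.68, or 5.93-fold. The first 2 differences were just above the 2-fold minimum. Of the other enzymes, none was listed. In the same comparison the epidermal marker Eucgr.A01963 was 3.96 higher, at 5.12 over a control value of 1.17, which is near the floor. The xylem marker Eucgr.J00938 was lower by -1.16 and the phloem marker Eucgr.F04138, a sucrose transporter, by -1.34. The part of these markers in the enzyme values was not tested.

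Cold with elevated CO2 was compared with the 20 °C ambient control. There 12 enzymes were higher and 1, Eucgr.J01153, was lower, against 16.2% and 13.3% of described genes. The median of the 13 was 2.14. The signed median of all changed described genes was 1.08, which pools higher and lower genes and again is no measure of usual size. The flavonol synthase Eucgr.L00738, from 2.11 to 6.17, was 16.7-fold higher. The leucoanthocyanidin dioxygenase reached 15.12, 7.10-fold above the control, and Eucgr.H02828 was 5.57-fold above it. All 4 flavonol synthases were higher, by 1.96 to 4.06. Markers of photosynthetic cells were lower in 5 of 5 listed cases, with a median of -1.68, xylem markers in 2 of 2, with a median of -2.12, and 1 phloem marker was higher; their part was not tested. Temperature and CO2 both differ in this comparison and cannot be told apart within it.

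Heat with elevated CO2, against the same control, gave 12 lower and 3 higher enzymes, beside 16.8% and 29.3% of described genes. The 3 higher were Eucgr.H00087 by 3.74, and the flavonol synthases Eucgr.L00738 by 2.37 and Eucgr.F03761 by 1.78. The lower ones included Eucgr.L02670 by -2.40, Eucgr.D01632 by -2.38, Eucgr.K01978 by -2.27, Eucgr.D01635 by -1.95 and Eucgr.D01637 by -1.63, all of the synthase family. The enzymes with the largest falls at 30 °C in ambient CO2 stood nearer the control here. Eucgr.H02828 was lower by -1.23, Eucgr.D01945 by -1.52, Eucgr.F01589 by -1.40 and Eucgr.G03138 by -1.19. In the same comparison 7 of 7 listed markers of photosynthetic cells were higher, by up to 8.94, as was 1 xylem marker by 1.05. The epidermal marker Eucgr.A01963 was 4.39 higher, from its control value of 1.17 near the floor. Phloem markers were 2 higher and 3 lower. The part of all these markers in the enzyme values was not tested.

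Except at the temperature of the control, elevated and ambient CO2 at the same temperature were not compared in a table of the authors. At the other temperatures the differences therefore join values of separate tables and carry no test. A gene has both values only where it was listed in both tables. At 10 °C, 12 enzymes had both, and 12 of 12 were higher in elevated CO2, by 0.34 to 0.90 on the log2 scale, with a median of 0.70. None reached 2-fold, beside 5.48% of the 2209 described genes with both values that were 2-fold higher and 3.98% that were 2-fold lower. All 12 had been listed as above the control in elevated CO2. Among the 1230 described genes with that same call, 69.2% were higher in elevated than in ambient CO2 at 10 °C, with a median of 0.29.

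At 30 °C, 14 enzymes had both values, and 8 were at least 2-fold higher in elevated CO2 and 0 lower, beside 16.8% and 9.25% of 2876 described genes. Eucgr.H02828 was 2.59 higher (10.66 against 13.25), Eucgr.I01579 2.20, Eucgr.G03138 1.97, the leucoanthocyanidin dioxygenase Eucgr.D01945 1.89 (8.89 against 10.78), Eucgr.L00738 1.70, the reductase Eucgr.F01589 1.67, Eucgr.F03816 1.24 and Eucgr.F03761 1.17. The 8 take in the steps from chalcone synthase to leucoanthocyanidin dioxygenase, save flavanone 3-hydroxylase, for which no value is at hand. The other 6 members, all of the chalcone synthase family, lay between -0.70 and 0.31. Of the 12 enzymes below the control at 30 °C with elevated CO2, 11 had an ambient value at 30 °C (Eucgr.J01153 had none), and 6 of these were at least 2-fold higher than at 30 °C with ambient CO2. Among the 1043 described genes with that same call, 4.31% were. A gene with that call could be so only if it lay at least 4-fold below the control at 30 °C with ambient CO2. The 1043 genes were not matched to the enzymes on that fall, so these shares cannot set the enzymes apart. An epidermal marker with both values, Eucgr.A01963, was 1.89 higher in elevated CO2 at 30 °C, and 2 of 7 markers of photosynthetic cells were 2-fold higher; their part in the enzyme values was not tested.

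**Figure D4:**
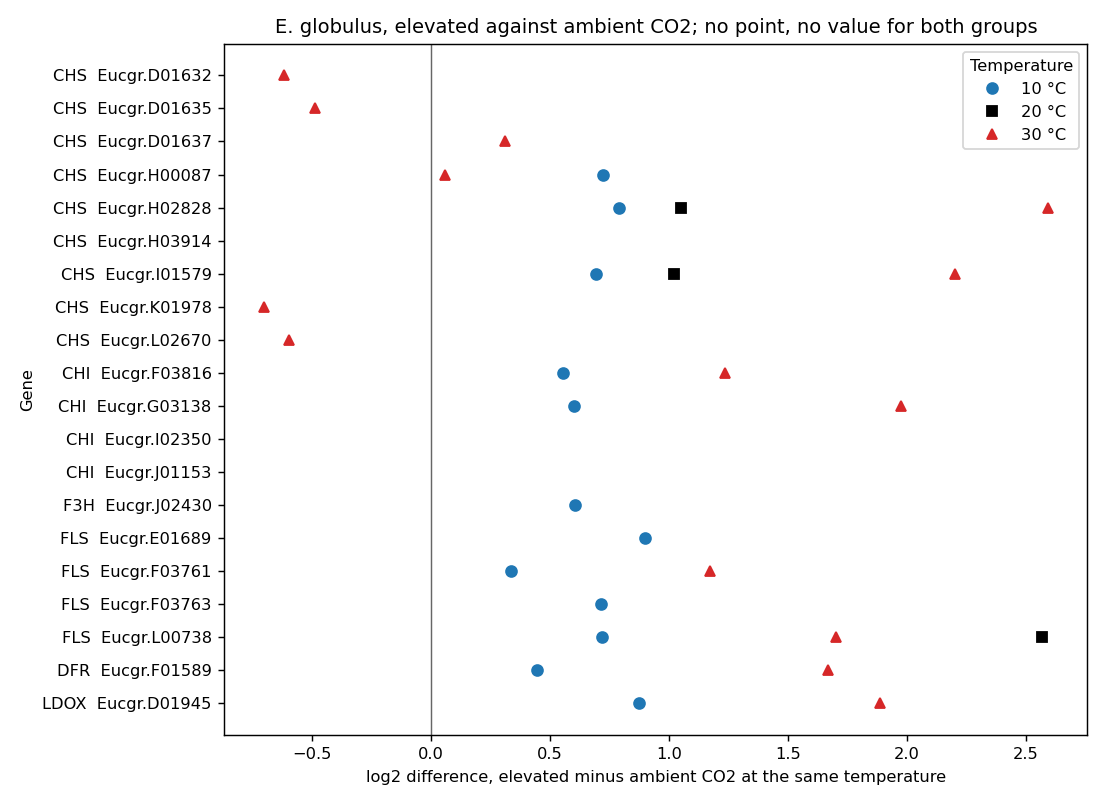
Difference of the authors' group values between elevated and ambient CO2 at the same temperature (log2, horizontal axis) for E. globulus flavonoid enzymes (rows), with circles at 10 °C, squares at 20 °C and triangles at 30 °C; a missing point means that a value for 1 of the groups is not listed. The circles lie between 0.34 and 0.90, and the triangles reach 2.59 for Eucgr.H02828 but lie between -0.70 and 0.31 for 6 synthase family genes.

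With elevated CO2 at both temperatures, 30 °C still stood below 10 °C for the enzymes listed at both, again without a test. Of 10 such members, 7 were lower and 2 higher at 30 °C, beside 19% and 22.1% of 1209 described genes. The differences were -3.71 for Eucgr.H02828, -4.34 for Eucgr.D01945 and -3.38 for Eucgr.F01589. The 2 higher ones were Eucgr.H00087 by 1.62 and Eucgr.J01153 by 1.22.

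E. grandis had far fewer changed genes of any kind, and 2 flavonoid enzymes among them. The dihydroflavonol 4-reductase Eucgr.D02358, listed in no E. globulus table, had group values of 10.83 at 10 °C, 9.71 at 20 °C and 8.76 at 30 °C in ambient CO2. In elevated CO2 its values were 11.10 at 10 °C and 10.89 at 30 °C. In ambient CO2 it was thus higher at 10 °C than at 20 °C by 1.12 and lower at 30 °C than at 10 °C by -2.07; between 30 and 20 °C it differed by -0.95, under 2-fold. The counts were 1 higher and 0 lower of 21 at 10 °C (background 1.24% and 2.07%), 0 changed at 30 °C against 20 °C (0.775% higher and 0.52% lower) and 1 lower and 0 higher at 30 °C against 10 °C (1.53% and 2.59%).

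With elevated CO2, the same reductase was above the E. grandis control at both temperatures. It was 1.39 higher at 10 °C and 1.19 higher at 30 °C. At 30 °C its value in elevated CO2 was 2.13 above that in ambient CO2, and at 10 °C it was 0.27 above, both without a test. With both values at 30 °C, 82 described genes gave 29.3% at least 2-fold higher, so 1 gene says little here. The flavonol synthase Eucgr.L00738 had an E. grandis value of 8.79 at 10 °C with elevated CO2 and of 4.55 in the control, 18.9-fold higher. At 10 °C with elevated CO2, 2 enzymes of 21 were higher and 0 lower, beside 3.86% and 9.13% of described genes. At 30 °C with elevated CO2, 1 was higher and 0 lower, beside 4.89% and 3.7%. Of the photosynthetic markers, 4 were lower at 10 °C and 4 higher at 30 °C with elevated CO2 in this species, and their part was not tested. Shares of 2 and 1 in 21 rest on too few genes to stand apart from these backgrounds.

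Eucgr.L00738 was the one enzyme called in both species. It had its highest value at 10 °C with elevated CO2 in each, 6.17 among 6 E. globulus groups and 8.79 in E. grandis, for which the control is the only other value listed. Its E. globulus control value of 2.11 was below the 4.55 of the E. grandis control, while the other E. globulus enzymes called at 10 °C were listed in no table of E. grandis temperatures or treatments. A gene that is not listed may have changed by less than 2-fold or have missed the authors' test, so this does not show that the species differ.

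One table set E. globulus at 20 °C with elevated CO2 against the E. grandis control, per its column headers. The name of the deposited file instead pairs 2 E. grandis groups, with and without elevated CO2. The headers were followed here. Of the values given more than once for the same group, 8144 of 8144 were equal, but how many came from this column was not counted. As the headers have it, species and CO2 both differ and cannot be told apart; as the name has it, the values would be a CO2 difference within E. grandis. By the headers, 3 enzymes were higher in E. globulus and 0 lower, beside 6.98% and 12.8% of described genes. The synthase family genes Eucgr.D01635 and Eucgr.L02670 had values of 8.28 and 7.33 in E. globulus, against 2.28 and 2.44 in E. grandis. The isomerase family gene Eucgr.J01153 had 4.34 and was listed at 0 in E. grandis. In the E. globulus control itself, from other tables, these 3 had 7.70, 7.11 and 4.89. Their values in the elevated CO2 group were thus nearer to this control than to that of E. grandis. All identifiers are of 1 set of gene models used for both species, and how well reads of each species match them was not tested. Over 2453 genes with values in both controls, the E. globulus value was lower by a median of -0.57 on the log2 scale.

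Enzymes that feed the route were described as well, from a list of the entry to phenylpropanoid synthesis with 8 genes in the tables. In E. globulus, 4 of the 8 were higher and 0 lower at 10 °C (16.9% and 14.9% of described genes), and 0 were higher and 2 lower at 30 °C (22.1% and 15.2%). In elevated CO2, 1 was higher and 0 lower at 20 °C (3.39% and 1.62%), and 5 were higher and 0 lower at 10 °C (16.2% and 13.3%). At 30 °C with elevated CO2 the list went both ways, with 3 higher and 2 lower (29.3% and 16.8%) and a median of 1.01, where the flavonoid enzymes were mostly lower. Phenylalanine ammonia-lyase 2 (Eucgr.J00907), which takes phenylalanine into the pathway, had values of 15.26, 13.45 and 9.75 at 10, 20 and 30 °C, and of 15.99, 14.74 and 12.44 with elevated CO2. Its 6 groups stood in the same order as those of the chalcone synthase genes Eucgr.H02828 and Eucgr.I01579. The ligase 4-coumarate:CoA ligase 3 (Eucgr.K00087), which activates the phenylpropanoid acid, had 13.20, 11.75 and 9.18. Of 2 genes for cinnamate-4-hydroxylase, an enzyme between them, Eucgr.J01844 had 14.68, 13.89 and 13.06, lower at 30 °C than at 10 °C by -1.62 and under 2-fold from the control at both, and 1.47 above the control at 10 °C with elevated CO2. The other, Eucgr.C00065, had its lowest value in the control, with 8.28, 5.84 and 6.39, and at 30 °C with elevated CO2 it was 2.28 above the control. In E. grandis this gene was 1.82 higher at 10 °C, while an ammonia-lyase gene, Eucgr.C03570, was lower by -1.12.

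Regulators were taken from a list of MYB factors and relatives of HY5, a light-response factor, with 15 genes in the tables. Their descriptions name Arabidopsis genes, where MYB12 and MYB111 switch on flavonol genes, MYB113 switches on anthocyanin genes and MYB4 represses phenylpropanoid genes. In E. globulus, 7 of the 15 were higher and 1 lower at 10 °C (16.9% and 14.9% of described genes), and 2 were higher and 5 lower at 30 °C (22.1% and 15.2%). In elevated CO2, 3 were higher and 0 lower at 20 °C (3.39% and 1.62%), and 10 higher and 1 lower at 10 °C (16.2% and 13.3%). The 10 include genes described as MYB7, Eucgr.C00721 by 1.99 and Eucgr.C00722 by 2.00. They also include a MYB32 gene, Eucgr.C03153, by 2.45 from a control value of 0. The list pools activators with repressors, so its counts are not counts of activators. At 30 °C with elevated CO2, 4 were higher and 3 lower (29.3% and 16.8%), with a median of 1.25, while 12 of the flavonoid enzymes were lower. A gene described as MYB111 (Eucgr.F03176) had values of 7.67, 5.37 and 1.09 at 10, 20 and 30 °C, and of 9.34, 6.98 and 2.45 with elevated CO2. A gene described as MYB12 (Eucgr.D02390) had 12.81, 11.37 and 7.86, and 13.76, 12.52 and 10.04. Both stood in the same order over the 6 groups as the chalcone synthase genes above. The gene lower at 10 °C was a MYB4 gene, Eucgr.I01406, by -1.17. Another MYB4 gene, Eucgr.J02817, went the other way. It was 0.96 above the control at 10 °C, under 2-fold, 1.75 above it at 30 °C and 2.62 above it at 30 °C with elevated CO2.

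**Figure D5:**
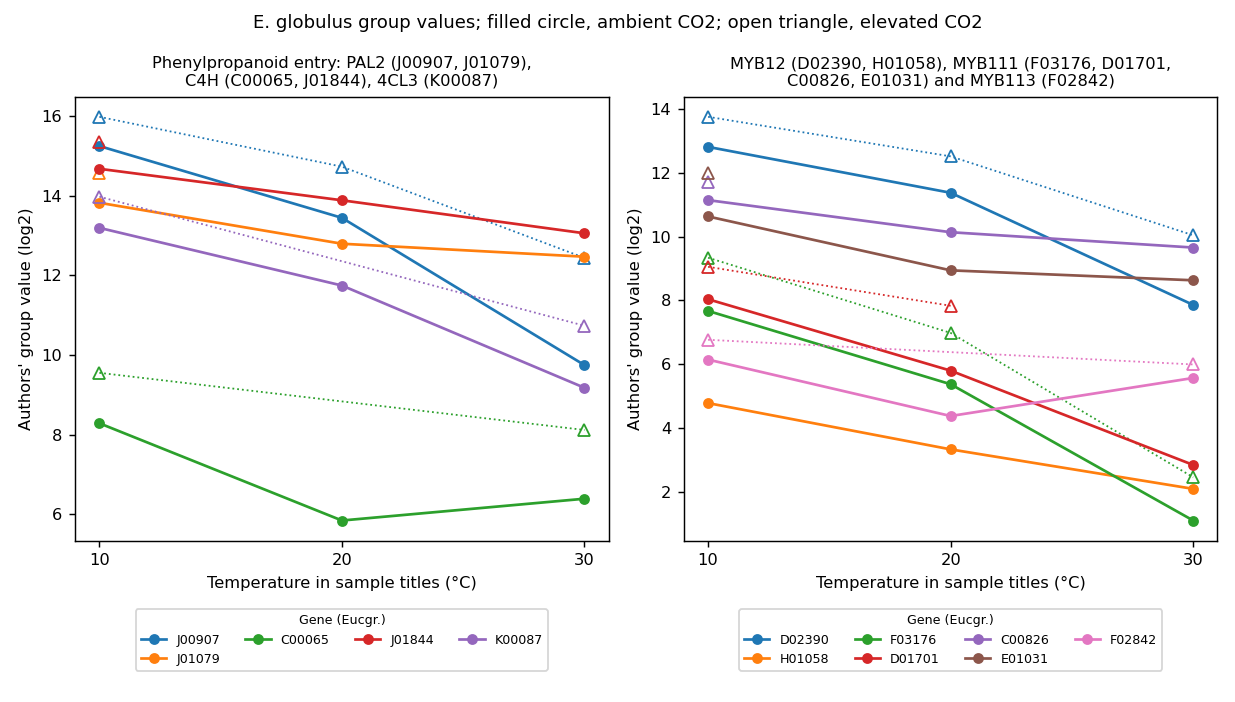
The authors' log2 group values (vertical axis) in E. globulus stems against the temperature in the sample titles (°C, horizontal axis) for enzymes of phenylpropanoid entry (left) and genes described as MYB12, MYB111 and MYB113 (right), with filled circles for ambient and open triangles for elevated CO2. Eucgr.J00907, Eucgr.D02390 and Eucgr.F03176 are lower at each higher temperature and higher with elevated CO2 at each, while Eucgr.C00065 and Eucgr.F02842 are lowest at 20 °C.

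Regulator genes changed in E. grandis too, where few enzymes were listed. There, 2 of the 15 were higher and 0 lower at 10 °C (1.24% and 2.07% of described genes), and 0 were higher and 1 lower at 30 °C (0.775% and 0.52%). With elevated CO2, 6 were higher and 0 lower at 10 °C (3.86% and 9.13%), and 3 higher and 0 lower at 30 °C (4.89% and 3.7%). Counted among the 2 and among the 3 was a MYB113 gene near the floor of 0, Eucgr.F02843. Its E. grandis values were 1.49 at 10 °C, 0.09 at 20 °C and 2.78 at 30 °C with elevated CO2. A MYB12 gene, Eucgr.H01058, had E. grandis values of 6.79, 4.53 and 2.45 and E. globulus values of 4.78, 3.33 and 2.09 at 10, 20 and 30 °C. It fell by 4.34 from 10 to 30 °C in E. grandis. The MYB113 gene Eucgr.F02842 had 7.83 and 7.93 in E. grandis at 10 and 30 °C with elevated CO2, which is 2.82 and 2.91 above its control. In E. globulus it was above the control at both 10 °C, by 1.77, and 30 °C, by 1.19.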

How the data were processed

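Per the labels' protocols, stem RNA was extracted with CTAB and made into standard Illumina libraries. The submitters' processing notes name Bowtie2 and DESeq, with neither version nor role. Genome build and counting rules were not given in the sources used here. Coordinates are therefore left out, and only distances between annotated ends are given, on a map whose build is unknown. The 8 deposited tables give 1 normalised log2 value per gene and group, with a floor of 0, per the file headers. They list only genes that passed a corrected p of 0.05 (6 tables of 2 groups with a moderated test, 2 of 3 temperatures with one-way analysis) and a fold of at least 2 in at least 1 pair, per the file headers. The deposited log2 fold equalled the difference of the group values for 38299 of 38299 values, and 8144 of 8144 values repeated between tables were equal (tolerance 0.0001).

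Group differences were computed with Python 3.11.15, pandas 2.3.3 and numpy 2.4.6 and drawn with matplotlib 3.10.9; the calling step was tested on simulated data. The deposited values gave 0 columns per sample, so the planned limma fits, errors and p-values could not be made, and counts were set against the 9802 described genes instead. E. grandis at 20 °C with elevated CO2 was not analysed here, since no column header names it; 1 file is named for it, but its headers give E. globulus. The members and lists were chosen with earlier results of these data known. Lists planned as gene symbols were matched by description, since the symbol column repeats the identifiers. Named were members at least 4-fold apart in a comparison or called in at least 4 comparisons, and the largest of any step without one; the few others are named with values seen. Genes named from the entry, regulator and light lists were chosen after their values were seen.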

Additional observations from a re-analysis of the deposited data

How the results depend on the processing

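With a minimum of 4-fold in place of 2-fold, the count of changed enzymes in E. globulus fell from 13 to 2 at 10 °C, from 17 to 9 at 30 °C against 20 °C, from 3 to 1 in elevated CO2 at 20 °C and from 15 to 6 at 30 °C with elevated CO2. In E. grandis it fell from 1 to 0 at 10 °C, from 2 to 1 at 10 °C with elevated CO2 and from 1 to 0 at 30 °C with elevated CO2. With each description counted once, by the median of its genes, the E. globulus counts were 5 at 10 °C, 5 at 30 °C, 6 for 30 against 10 °C, 6 at 10 °C with elevated CO2 and 5 at 30 °C with elevated CO2, by construction over fewer features. With every listed gene counted by sign, E. grandis at 30 °C against 20 °C had 1 lower enzyme in place of 0. The median for E. globulus with elevated CO2 against the E. grandis control was 4.89 with the gene at 0 kept and 5.45 without it. None of these settings turned a direction, and leaving out low values, genes at 0 or genes outside the named steps moved 0 of 12 counts past 1.5 times. Leaving out single samples and fits with a replicate block were not run. No paired analysis was possible because the files give 1 value per group and none per sample. Depth and spread between samples are unknown, so how firmly single values stand cannot be given.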

Other observations

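Genes that act beside the enzymes, taken from short lists, were few in the tables. Glutathione S-transferase phi 12 (Eucgr.F02915), whose Arabidopsis counterpart carries anthocyanins to the vacuole, had E. grandis values of 11.01 at 10 °C and 11.92 at 30 °C with elevated CO2, 2.00 and 2.91 above the control. In E. globulus it had 8.46 at 10 °C, 9.25 at 20 °C and 8.19 at 30 °C in ambient CO2, lower than the control by -1.06 at 30 °C. Of 2 flavonoid glucosyltransferases, Eucgr.F03295 was lower by -1.32 in E. globulus at 30 °C with elevated CO2, and Eucgr.L02697 was 3.18 higher in E. globulus with elevated CO2 than in the E. grandis control, per the column headers of that table.

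Of 6 light-signalling genes in the tables, 3 were listed among the ambient temperatures of E. globulus. There 0 were higher and 2 lower at 10 °C (16.9% and 14.9% of described genes), and 2 higher and 0 lower at 30 °C (22.1% and 15.2%). With elevated CO2, 2 were higher and 1 lower at 10 °C (16.2% and 13.3%), and 3 higher and 2 lower at 30 °C (29.3% and 16.8%). Counts of so few genes give no direction for the list. The homologue of HY5 (Eucgr.B02198) was 1.18 above the control at 10 °C and 1.87 above it at 30 °C, both with elevated CO2. A gene described as salt tolerance homolog2 (Eucgr.G01710), a B-box factor of light responses, had 1.76, 3.25 and 6.08 at 10, 20 and 30 °C.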
